A study of Drosophila melanogaster with 6 samples.

Results

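The genes described here are 9 genes of muscle and tendon precursors of the leg disc: twi, Mef2, Him, zfh1, htl, stumps, lbe, lbl and sr. They were listed by name, by a rule that uses no measured level but was proposed with earlier results of these data known, and are 9 of the 15259 genes that could be matched in the libraries. A leg disc is a folded sac of larval epithelium that turns into an adult leg. The study compared leg discs at 2 hours after pupal formation (2h APF), just after entry into metamorphosis, with leg discs of wandering larvae at the end of the third instar (wL3), to look for genes that differ between these stages. PolyA+ RNA was sequenced in 3 libraries per stage, and all 6 libraries came from flies of the genotype white [1118], with no other allele or treatment named in the labels. No label says that the 3 libraries of a stage were separate dissections, so p-values measure only the spread between these libraries, which may be technical.

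Beneath the epithelium of a leg disc lie the adepithelial cells, the myoblasts from which the muscles of the adult leg are made. They are held undifferentiated during larval life, under the mesodermal factor Twist and Notch signalling, and fuse into muscle fibres during pupal life. The tendons to which these muscles attach come from the epithelium itself, from cells that switch on the transcription factor Stripe, the product of sr. A library of a whole disc therefore holds myoblasts and tendon precursors as minor cell types beside the epithelium, and in such bulk samples fewer cells of a type and less RNA per cell cannot be told apart.

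All 9 genes were detected in all 6 libraries and passed the filter on low counts. The authors' estimated counts per library summed to between 24395318 and 30880112 at 2h APF and to between 27514509 and 33373176 at wL3. For comparisons between stages a level is a CPM value (counts relative to library size, after TMM scaling in edgeR), and for comparisons between genes it is a TPM value, which takes transcript length into account. Differences between the stages were tested by quasi-likelihood in edgeR and adjusted (Benjamini-Hochberg) over 8940 genes, and calls required an adjusted p under 0.05 as well as a log2 fold change beyond 1. The 10 listed genes of the leg epithelium, among them Dll, dac and Sp1, had a summed level of 3362 to 3491 CPM at 2h APF and 3454 to 3609 CPM at wL3. Beneath this sum, 1 was called lower (bab1, log2 fold change -1.30) and 0 higher, beside 8.9% and 9.73% of all genes. By adjusted p alone, 4 were lower, Dll at -0.43 among them, and 2 higher, beside 36.9% and 30.6% of all genes. Among the wL3 libraries, replicate 1 stood apart in fat body genes, with 38.3 CPM against 2478 and 3860 CPM in replicates 3 and 2. At 2h APF these genes summed to 218 to 902 CPM. Of 7 fat body genes tested, 2 were called lower at 2h APF and 0 higher (8.9% and 9.73% of all genes). With each library left out, 0 to 6 were called lower. Salivary gland genes stood apart in wL3 replicate 3 instead, with 194 CPM against 50.9 and 65.3 CPM in replicates 1 and 2. Without wL3 replicate 1, sr was at a log2 fold change of 1.29, Him at 1.00, htl at 0.69, twi at 0.60 and zfh1 at 0.57.

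Between the stages, 5 of the 9 genes were higher at 2h APF by adjusted p in edgeR (twi, Him, zfh1, htl and sr), 0 were lower, and 4 (Mef2, stumps, lbl and lbe) did not pass. The counts were the same at an unadjusted p under 0.05 and, by adjusted p, with DESeq2. Across all genes tested, 67.5% passed, 30.6% in that direction and 36.9% in the other. With the fold threshold added, sr was the only one of the 9 called higher, where 18.6% of all genes were called, 9.73% higher and 8.9% lower. The median log2 fold change of the 9 genes was 0.55, beside -0.04 over all genes tested. The libraries of the stages did not overlap for 6 of the 9 genes, as was the case for 73.3% of all genes. With 3 libraries against 3, the exact permutation test has a smallest p of 0.1, which those 6 genes reached.

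**Figure D1:**
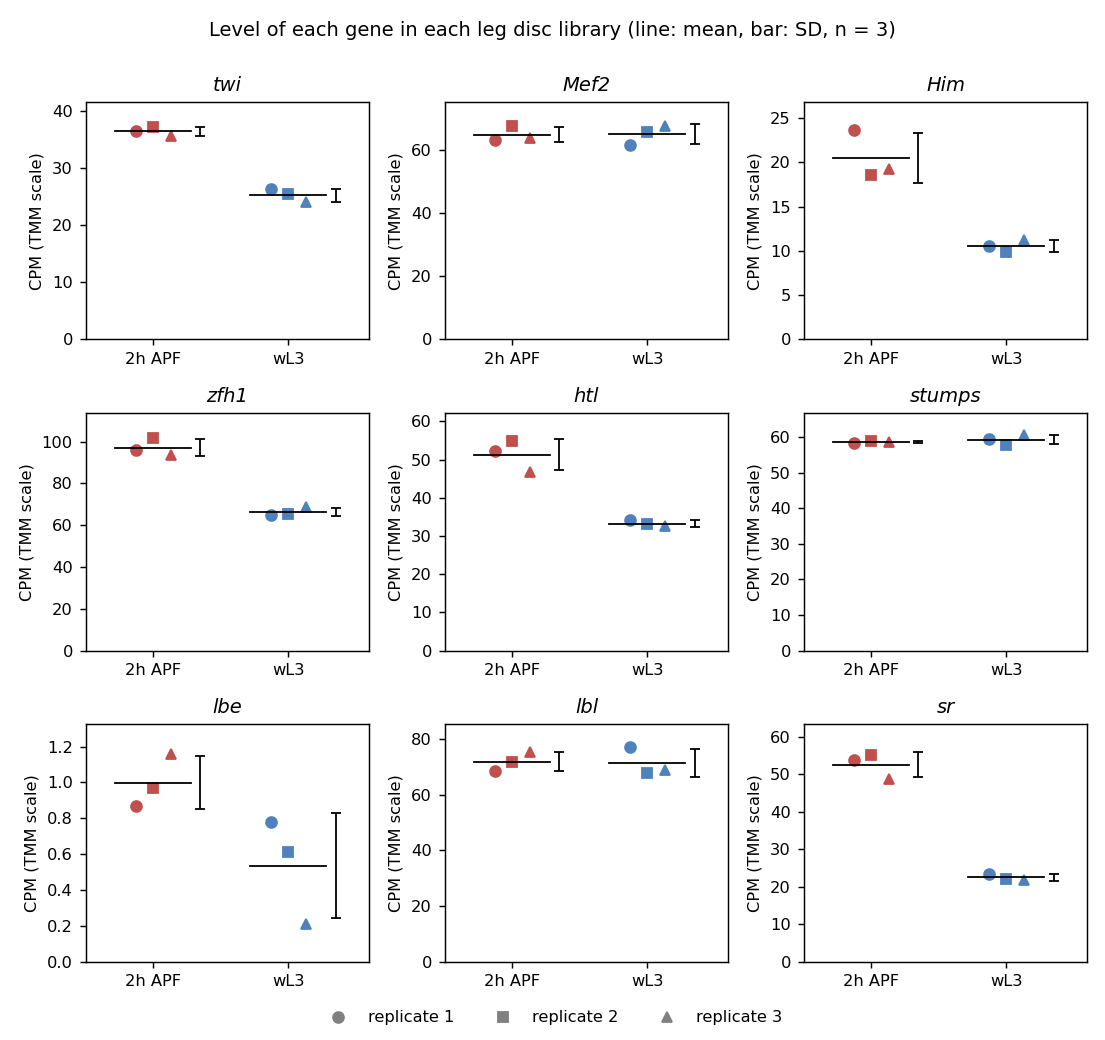
Level of each of the 9 genes in CPM (vertical axis, from 0) in the 3 libraries at 2h APF (red, left) and the 3 at wL3 (blue, right), with a line at the mean and a bar for the SD. The 2 stages separate for twi, Him, zfh1, htl, sr and, at 1.16 CPM or less, lbe, and overlap for Mef2, stumps and lbl.

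twi (FBgn0003900, chromosome arm 2R, 22985374 to 23048325, plus strand, BDGP6.54) encodes the basic helix-loop-helix factor that marks adult muscle precursors and keeps them undifferentiated. It had 36.5, 37.2 and 35.7 CPM at 2h APF, against 26.3, 25.5 and 24.1 CPM at wL3. All 2h APF libraries were above all wL3 libraries. The log2 fold change was 0.53 (SE 0.0461, 95% interval 0.42 to 0.64, edgeR adjusted p = 5.59e-05). Nearly all of its counts were assigned to the transcript FBtr0100130, and 8.5 counts, all in wL3 replicate 2, to FBtr0071953.

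Mef2 (FBgn0011656, 2R, 9913496 to 9958858, minus strand) encodes the MADS-box factor that activates the genes of differentiated muscle. Its total level was 63.3, 67.8 and 63.8 CPM at 2h APF, against 61.7, 66.0 and 67.7 CPM at wL3. The stages overlapped, and the log2 fold change was -0.00 (95% interval -0.12 to 0.11, edgeR adjusted p = 0.953). The sign of that value turned under several alternatives, all within -0.12 to 0.08.

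The transcripts behind this total differed between the stages. The annotation gives Mef2 starts at 3 positions for the 7 transcripts that the files hold, at base 9958858 (upstream), 9944764 (middle) and 9929615 (downstream). It holds 11 transcripts of Mef2, and those absent from the authors' list all begin at the downstream start, so no reads could be assigned to them. Transcripts of the upstream start took 51.2%, 55.0% and 51.0% of the gene's counts at 2h APF, against 77.5%, 77.4% and 76.1% at wL3. Transcripts of the downstream start took 44.5%, 42.7% and 46.6% at 2h APF, against 19.8%, 18.5% and 20.9% at wL3. Neither share overlapped between the stages, with a difference of -24.6 percentage points for the upstream start and 24.8 for the downstream one (exact permutation p = 0.1 for each, the smallest possible, and 0.175 adjusted over the 7 transcript shares compared).

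When transcripts in place of genes were fitted with edgeR, 15.1% of 17431 transcripts were called in either direction. FBtr0088444, from the downstream start, was called higher at 2h APF, with a log2 fold change of 1.17 (SE 0.195, adjusted p = 0.00446). FBtr0088447, from the upstream start, was called lower, at -2.16 (SE 0.674, adjusted p = 0.0448). FBtr0330708, which carried 50.6% of the gene's counts at 2h APF and 68.9% at wL3, had a log2 fold change of -0.47 (SE 0.0624, adjusted p = 0.0017). FBtr0330708 also differs from all transcripts of the downstream start at the 3′ end, whereas FBtr0088447 shares its 3′ end, at base 9913496, with FBtr0088445 of the downstream start. As kallisto's division of reads between overlapping transcripts is an estimate, the counts do not say which end of the gene carries the difference.

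Mef2 is also expressed in finished muscle, whose markers differed between the stages. Mhc, the myosin heavy chain of muscle, had 0.130, 0.116 and 0.175 CPM at 2h APF, against 1.65, 36.3 and 36.1 CPM at wL3. The upstream share of Mef2 was 77.5% in wL3 replicate 1, where Mhc was low, and 77.4% and 76.1% in wL3 replicates 2 and 3, where it was high. The part of finished muscle in the difference between the stages was not tested.

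Him and zfh1 encode antagonists of muscle differentiation. Him (FBgn0030900, chromosome X, 18209427 to 18210741, plus strand) encodes a small protein that represses the activity of Mef2, and had 23.7, 18.6 and 19.3 CPM at 2h APF, against 10.6, 9.89 and 11.2 CPM at wL3. The stages did not overlap, and the 2h APF libraries were spread more widely, with replicate 1 the highest. Him averaged 20.5 ± 2.79 CPM at 2h APF and 10.6 ± 0.673 CPM at wL3 (SD, n = 3 each), a log2 fold change of 0.96 (SE 0.108, 95% interval 0.70 to 1.21, edgeR adjusted p = 2.09e-04). This lies just under the fold threshold of 1, and leaving out 2h APF replicate 2, 2h APF replicate 3 or wL3 replicate 3 moved it to 1.02, 1.00 and 1.00, just past the threshold.

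zfh1 (FBgn0004606, 3R, 30765926 to 30789202, plus strand) encodes a zinc finger and homeodomain repressor that is made in the mesoderm and in adult muscle precursors. It had 96.3, 101.6 and 93.7 CPM at 2h APF, against 64.8, 65.4 and 68.7 CPM at wL3. All 2h APF libraries were above all wL3 libraries, with a log2 fold change of 0.55 (SE 0.0434, 95% interval 0.45 to 0.65, edgeR adjusted p = 3.45e-05). FBtr0085701 and FBtr0331180, of equal length, had identical values throughout and cannot be told apart, and the short FBtr0085702 held 0 to 25.5 counts per library. An antisense RNA, asRNA:CR45189, overlaps zfh1, and although the library kit marks strand, the setting used in the counting is not given in the sources used here.

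htl encodes Heartless, the fibroblast growth factor (FGF) receptor of the mesoderm, and stumps encodes the adaptor through which FGF receptors signal. htl (FBgn0010389, 3R, 18045216 to 18052984, minus strand) had 52.2, 54.9 and 46.8 CPM at 2h APF, against 34.2, 33.0 and 32.5 CPM at wL3. The stages did not overlap, and the log2 fold change was 0.63 (SE 0.0622, 95% interval 0.48 to 0.77, edgeR adjusted p = 1.08e-04). The transcript of its upstream start took 55.9%, 57.1% and 49.3% of the counts at 2h APF, against 57.1%, 55.6% and 56.2% at wL3, shares that overlapped between the stages.

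stumps (FBgn0020299, 3R, 14577217 to 14608079, plus strand) had 58.4, 59.0 and 58.6 CPM at 2h APF, against 59.3, 57.9 and 60.6 CPM at wL3. The stages overlapped, and the log2 fold change of -0.01 had a 95% interval of -0.09 to 0.06 (edgeR adjusted p = 0.706). Scaled by total library size, it was -0.13 (adjusted p = 0.0107), a scaling under which the median of all genes itself moved by -0.11. The ratio of receptor to adaptor differed between the stages. The ratio of htl to stumps was 0.894, 0.930 and 0.799 at 2h APF, against 0.576, 0.570 and 0.537 at wL3, without overlap (exact permutation p = 0.1, the smallest possible).

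lbl and lbe, ladybird late and ladybird early, are neighbouring homeobox genes, 7443 bases apart on 3R (lbl 21409979 to 21434133, lbe 21441577 to 21446537, both on the minus strand). Both act in the choice of muscle identity, but their levels in the leg disc were far apart. lbl averaged 52.8 ± 2.25 TPM at 2h APF and 52.8 ± 3.20 TPM at wL3, the highest of the 9 genes at each stage, and lbe averaged 0.646 ± 0.0919 TPM at 2h APF and 0.345 ± 0.187 TPM at wL3 (SD, n = 3 each). Per length, lbl was thus 81.8 times lbe at 2h APF and 153 times lbe at wL3.

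lbl (FBgn0008651) had 68.5, 72.0 and 75.4 CPM at 2h APF, against 77.1, 67.8 and 69.1 CPM at wL3. The stages overlapped, and the log2 fold change was 0.01 (95% interval -0.13 to 0.16, edgeR adjusted p = 0.869). As with Mef2, the transcripts behind this total differed between the stages. FBtr0332438, in which an intron within the last exon is spliced out (21410651 to 21410702, 52 bases in BDGP6.54) and to which the annotation gives another stop codon, took 33.6%, 51.6% and 46.3% of the counts at 2h APF, against 66.9%, 70.2% and 66.9% at wL3. FBtr0084092, which keeps that stretch and is 50 bases longer in the authors' list, took 65.6%, 47.4% and 52.8% at 2h APF, against 32.3%, 28.9% and 32.6% at wL3.

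Neither share of lbl overlapped between the stages, although the 2h APF libraries were spread over a wide range (exact permutation p = 0.1, the smallest possible). As single transcripts, FBtr0084092 had a log2 fold change of 0.80 (SE 0.135, edgeR adjusted p = 0.00469) and FBtr0332438 one of -0.64 (SE 0.178, adjusted p = 0.0306), and neither passed the fold threshold. The 3 transcripts of lbl share a start, and the third, FBtr0300061, took 0.914% ± 0.151 at 2h APF and 0.727% ± 0.240 at wL3 (SD, n = 3 each). The division by kallisto rests on the reads that meet this short stretch.

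lbe (FBgn0011278) was near the limit of detection, with 20, 25 and 33 counts at 2h APF, against 26, 17 and 7 counts at wL3. In CPM the stages did not overlap, at 0.869, 0.968 and 1.16 CPM at 2h APF and 0.782, 0.613 and 0.211 CPM at wL3. The log2 fold change of 0.90 had an SE of 0.482 and a 95% interval of -0.25 to 2.04 (edgeR adjusted p = 0.139), so that no difference could be shown at this depth. Without wL3 replicate 3, the lowest library, it was 0.51, and without wL3 replicate 1 it was 1.33. The adjusted p stayed above 0.05 under every alternative that tested lbe.

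**Figure D2:**
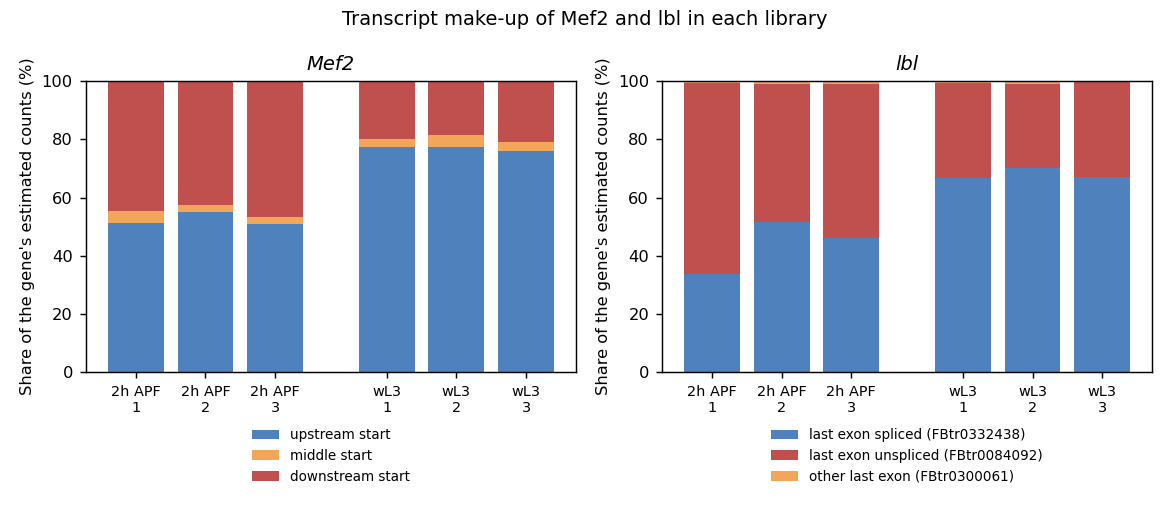
Share of the gene's estimated counts (vertical axis, percent) for the transcripts of each Mef2 start and for the 3 transcripts of lbl, in the 3 libraries at 2h APF (left) and the 3 at wL3 (right). The upstream start of Mef2 took 51.0% to 55.0% at 2h APF and 76.1% to 77.5% at wL3, and the spliced form of lbl took 33.6% to 51.6% at 2h APF and 66.9% to 70.2% at wL3.

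sr (FBgn0003499, 3R, 18090803 to 18135583, plus strand) encodes Stripe, a zinc finger factor of the EGR family that sets tendon cell fate. It lies 37818 bases from htl. It had 53.9, 55.0 and 48.7 CPM at 2h APF, against 23.5, 22.1 and 21.9 CPM at wL3. All 2h APF libraries were more than 2 times the highest wL3 library. sr averaged 52.5 ± 3.35 CPM at 2h APF and 22.5 ± 0.849 CPM at wL3 (SD, n = 3 each), a log2 fold change of 1.22 (SE 0.0579, 95% interval 1.08 to 1.36, edgeR adjusted p = 3.75e-06), and its call was kept under every alternative fitted on genes, with values of 1.11 to 1.29. Transcripts of the start at base 18122061 held 99.8% of its counts at 2h APF and 100.0% at wL3, and those of the start at 18090803 held 0 counts except for 6.4 in 2h APF replicate 2.

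**Figure D3:**
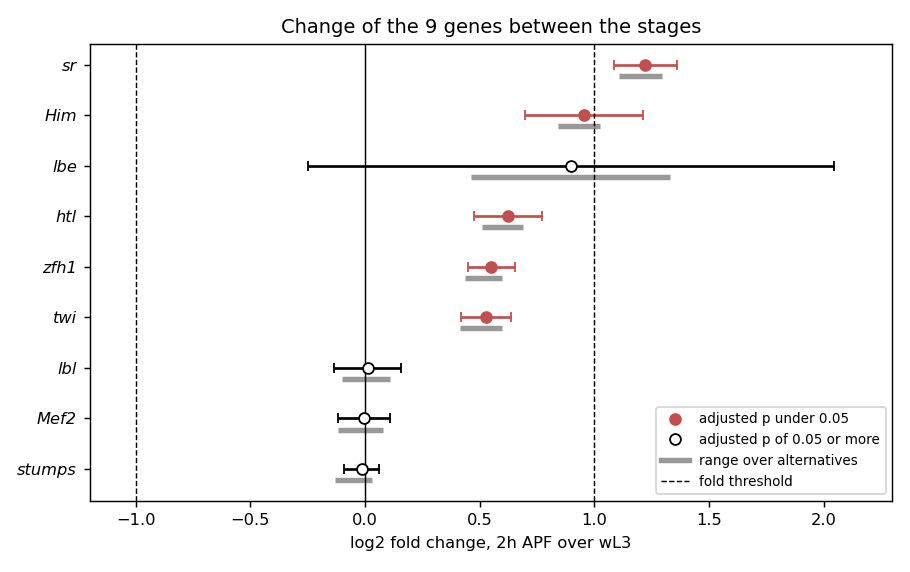
Log2 fold change of the 9 genes, 2h APF over wL3 (horizontal axis), with the 95% interval of the edgeR fit (bars), filled where the adjusted p was under 0.05, and the range over the alternative settings (grey). sr at 1.22 lies past the dashed line at 1, Him at 0.96 lies just under it, twi, zfh1 and htl lie at 0.53 to 0.63, and lbl, Mef2 and stumps lie between -0.01 and 0.01.

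Set against twi within each library, zfh1 and htl had ratios that overlapped between the stages, and Mef2, lbl, Him and sr did not. The ratio of zfh1 to twi was 2.64, 2.73 and 2.62 at 2h APF, against 2.47, 2.56 and 2.86 at wL3 (exact permutation p = 0.8). That of htl to twi was 1.43, 1.47 and 1.31 at 2h APF, against 1.30, 1.29 and 1.35 at wL3 (exact permutation p = 0.2). The log2 fold changes of twi, zfh1 and htl lay between 0.53 and 0.63. The ratio of Mef2 to twi was 1.78 ± 0.0436 at 2h APF and 2.58 ± 0.235 at wL3, and that of lbl to twi was 1.97 ± 0.121 at 2h APF and 2.82 ± 0.144 at wL3 (SD, n = 3 each). Neither of these overlapped, and both were lower at 2h APF in all 3 libraries.

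The ratio of Him to twi was 0.563 ± 0.0780 at 2h APF and 0.419 ± 0.0424 at wL3 (SD, n = 3 each). The ratio of the antagonist Him to Mef2 was 0.375, 0.274 and 0.302 at 2h APF, against 0.171, 0.150 and 0.166 at wL3. The ratio of sr to twi, tendon factor to myoblast factor, was 1.48, 1.48 and 1.36 at 2h APF, against 0.893, 0.867 and 0.911 at wL3. None of these ratios overlapped between the stages. Of 8 ratios compared, those without overlap reached the smallest exact permutation p of 0.1 (0.133 adjusted over the 8), and all are ratios of counts, with no correction for length.

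By level per length, the order of the 9 genes was led by lbl at both stages and closed by sr and lbe. At 2h APF it ran lbl, Him (35.3 TPM), twi (26.0 TPM), Mef2 (21.8 TPM), zfh1 (20.5 TPM), stumps (18.4 TPM), htl (17.3 TPM), sr (14.3 TPM) and lbe, and only stumps and htl overlapped in their libraries. At wL3 it ran lbl, Mef2 (20.7 TPM), stumps (18.6 TPM), Him (18.2 TPM), twi (18.0 TPM), zfh1 (13.9 TPM), htl (11.2 TPM), sr (6.11 TPM) and lbe. There the libraries of Him overlapped those of Mef2, stumps and twi, and those of stumps overlapped those of twi.

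Other genes of the FGF pathway mostly differed by less than the fold threshold. Of 18 tested (htl and stumps included), 1 was called higher and 0 lower, and the median log2 fold change was -0.01. By adjusted p alone, 7 were higher and 5 lower. The shares over all genes were 9.73% called higher and 8.9% lower, and by adjusted p 30.6% higher and 36.9% lower. Of the ligands of Heartless, pyr averaged 40.6 ± 4.28 CPM at 2h APF and 33.4 ± 0.795 CPM at wL3 (SD, n = 3 each), a log2 fold change of 0.28 (edgeR adjusted p = 0.0130). The other ligand, ths, had 30.2, 27.7 and 32.2 CPM at 2h APF, against 20.8, 25.6 and 24.0 CPM at wL3, a log2 fold change of 0.36 (adjusted p = 0.0102). pnt, a transcriptional effector of the Ras/MAPK relay, averaged 41.2 ± 1.42 CPM at 2h APF and 66.1 ± 5.38 CPM at wL3, a log2 fold change of -0.68. EGF receptor signalling in the leg disc uses the same relay, so the level of pnt is not particular to the FGF pathway. The call was bnl, the ligand of the tracheal receptor Breathless, at 1.27.

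Some genes of myoblast fusion were higher at 2h APF, in whole discs where the cells that expressed them were not identified. Of 15 tested, 3 were called higher and 0 lower (median log2 fold change 0.18), and 11 were higher and 0 lower by adjusted p alone, as with DESeq2, beside 9.73% called higher and 30.6% higher by adjusted p over all genes. The 4 that did not pass were sns, Ced-12, WASp and blow, at log2 fold changes of 0.05, 0.01, 0.00 and -0.07. With at least 10 counts in every library, or with limma on log2(TPM + 0.5), 1 was called. kirre, the adhesion receptor of muscle founder cells, averaged 87.3 ± 8.35 CPM at 2h APF and 42.3 ± 2.78 CPM at wL3 (SD, n = 3 each), a log2 fold change of 1.05 (edgeR adjusted p = 2.84e-05). lmd, the factor of fusion-competent myoblasts, had 16, 34 and 31 counts at 2h APF and 0 counts in all wL3 libraries, at least 10.7-fold higher in CPM against a floor of 3 counts per library. sing, which encodes a membrane protein needed for fusion, had 13, 14 and 11 counts at 2h APF, against 3, 0 and 2 at wL3.

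Of 15 tested genes of muscle identity and adult myoblasts, 3 were called higher and 0 lower, with a median of 0.42. By adjusted p alone, 11 were higher and 0 lower. Over all genes, 9.73% were called higher and 30.6% were higher by adjusted p. slou, a homeobox gene of muscle founders, averaged 7.29 ± 0.756 CPM at 2h APF and 2.44 ± 0.647 CPM at wL3 (log2 fold change 1.58, edgeR adjusted p = 7.01e-04). eya, which encodes a transcriptional coactivator of the mesoderm and eye, averaged 19.9 ± 1.35 CPM at 2h APF and 7.19 ± 1.63 CPM at wL3 (1.47, adjusted p = 1.64e-04). E(spl)m6-BFM, a Notch target, averaged 29.2 ± 4.22 CPM at 2h APF and 11.6 ± 1.68 CPM at wL3 (1.33, adjusted p = 1.37e-04). Poxm, a Pax gene of muscle precursors, had a log2 fold change of 0.58 and ct one of 0.48, both under the fold threshold. Of 16 Notch pathway genes, 1 was called higher (the same E(spl)m6-BFM) and 0 lower, with a median of 0.30, beside 9.73% and 8.9% over all genes. By adjusted p alone, 9 were higher and 3 lower, beside 30.6% and 36.9% over all genes. The 3 were Su(H), gro and E(spl)m8-HLH, at -0.44, -0.46 and -0.44. Several of the 16 genes act in the epithelium as well.

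Of 12 listed genes of tendon cells and of leg tendon or joint factors beyond sr, 1 was called higher and 0 lower, with a median of 0.11. By adjusted p alone, 6 were higher and 2 lower. Over all genes, 9.73% were called higher and 8.9% lower, and by adjusted p 30.6% were higher and 36.9% lower. slow, which encodes a secreted protein of tendon cells, had 300.3, 350.5 and 295 CPM at 2h APF, against 70.8, 58.4 and 59.2 CPM at wL3. The stages were far apart, with a log2 fold change of 2.33 (edgeR adjusted p = 2.79e-06). Tsp, thrombospondin of the tendon matrix, averaged 203 ± 2.26 CPM at 2h APF and 120 ± 8.12 CPM at wL3 (0.76). Lrt, a leucine-rich repeat protein of tendon cells, had 33.3, 36.0 and 32.7 CPM at 2h APF, against 46.6, 47.4 and 42.5 CPM at wL3 (-0.42, adjusted p = 6.20e-04), and tx, also known as delilah, was low at both stages, at 1.63 ± 0.433 CPM at 2h APF and 1.55 ± 0.387 CPM at wL3 (SD, n = 3 each).

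**Figure D4:**
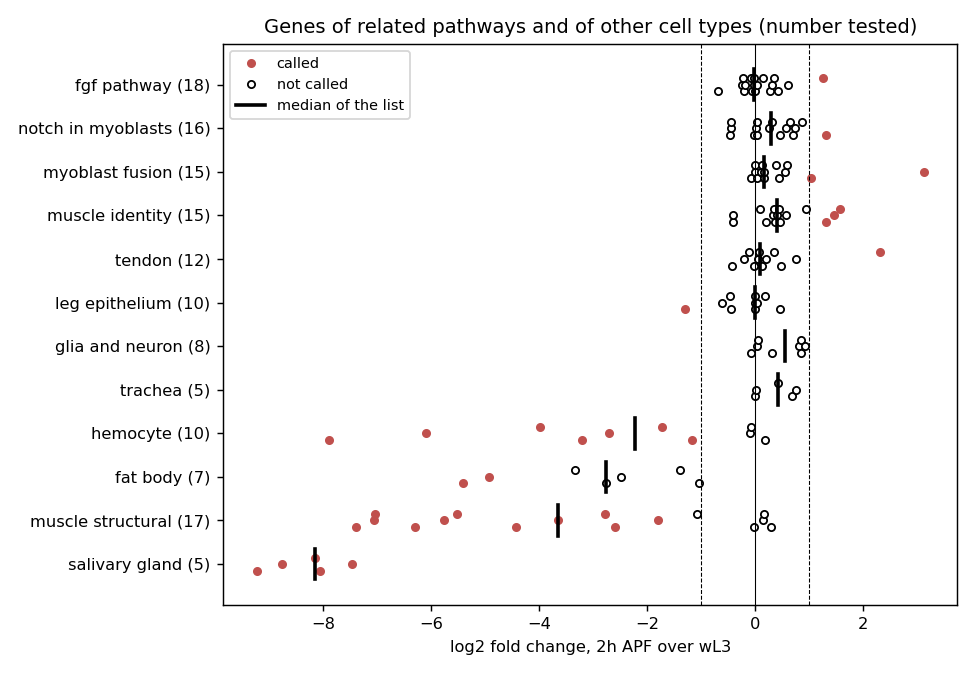
Log2 fold change, 2h APF over wL3 (horizontal axis), of every tested gene of the related pathways and of the marker lists of other cell types, with called genes filled and the median of each list as a bar. The genes lmd and Tm2, at 0 in all libraries of a stage, are left out of the points, and the medians of the muscle structural, hemocyte, fat body and salivary gland lists lie between -8.14 and -2.21, away from those of the myoblast and tendon lists. In the fat body list 2 of 7 genes were called, and its sum in wL3 replicate 1 was below that of every 2h APF library.

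Markers of other cell types that use some of the 9 genes moved in both directions. Of 17 tested genes of differentiated muscle, 12 were called lower and 0 higher at 2h APF (median -3.65), beside 8.9% called lower over all genes, and 5 were called lower with at least 10 counts in every library. By adjusted p alone, Tm1 and Zasp52 were higher, at 0.18 and 0.30. The list had a summed level of 1418 to 1475 CPM at 2h APF and 1298 to 1670 CPM at wL3, carried by Tm1, sls and Zasp52, which other cells also use. Of 10 hemocyte genes, 7 were called lower and 0 higher, with summed levels of 132 to 160 CPM at 2h APF and 260 to 433 CPM at wL3. Hml, the furthest apart of them, had 0.301 ± 0.0884 CPM at 2h APF and 71.6 ± 23.3 CPM at wL3 (SD, n = 3 each). The 3 that did not pass were crq, ush and lz, at log2 fold changes of 0.19, -0.08 and -0.07. At an unadjusted p under 0.05 in edgeR, and by adjusted p with DESeq2, 1 of the 10 was higher. Blood cells can also express zfh1, and their part in its level was not tested.

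Of 8 glial and neuronal genes, 0 were called by edgeR in either direction (adjusted p under 0.05 with the fold threshold). By adjusted p alone 2 were higher, as were 30.6% of all genes. With DESeq2 these counts were 0 and 3, at an unadjusted p under 0.05 in edgeR 2 were higher, and without wL3 replicate 3 edgeR called 3 higher. The 2 were the glial genes repo, at 18.8 ± 0.483 CPM at 2h APF and 10.4 ± 1.39 CPM at wL3, and moody, at 25.9 ± 2.35 CPM at 2h APF and 13.6 ± 1.49 CPM at wL3 (SD, n = 3 each). The list summed to 155 to 173 CPM at 2h APF and 109 to 146 CPM at wL3. Glia can express htl and zfh1, and the part of glia in the higher level of these genes was not tested. The 5 genes of the trachea, where stumps also acts, summed to 703 to 727 CPM at 2h APF and 523 to 528 CPM at wL3. The largest part of this sum was serp, at 468 ± 13.6 CPM at 2h APF and 291 ± 7.78 CPM at wL3. By adjusted p alone 2 were higher, serp (log2 fold change 0.68) and btl (0.42), and 0 lower. The genes trh, vvl and verm did not pass, at 0.03, 0.01 and 0.77. The part of the trachea in the level of stumps was not tested.

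Some other genes of the disc had nearly the same profile over the 6 libraries, by the Euclidean distance of centred log2 CPM over 7288 genes. The nearest to sr were 18w, which encodes a Toll-family receptor, at a distance of 0.0888, and ttk, which encodes a zinc finger repressor, at 0.103. The nearest to Him were CG4766 (0.177) and the Notch target E(spl)mgamma-HLH (0.198), those to twi were Tango5 and CG1103, and those to zfh1 were svr and Tsp96F. The nearest to htl were noc and Hnf4, those to Mef2 were Mtl and CG3356, those to stumps were Liprin-beta and CG31688, and those to lbl were Bet3 and ATPsynG. With 6 libraries of 2 stages, such likeness describes little more than the size of the difference between the stages.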

How the data were processed

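PolyA+ RNA of leg discs was sequenced in 3 libraries at 2h APF and 3 at wL3. The extraction protocol in the labels speaks of embryos, whereas the design and tissue labels name leg discs, which was followed. The authors assigned the reads with kallisto to a transcript list made from Ensembl 74 and added lincRNAs, and deposited an estimated count for each of 42506 targets, not normalized between libraries. They also deposited TPM, scaled per transcript length within each library. The labels name the build dm3.

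FlyBase transcript identifiers were looked up in the BDGP6.54 annotation (Ensembl release 115), whose coordinates are given. The 27011 matched targets of 15259 genes held 96.4% to 96.6% of the counts. Per gene, the estimated counts were added up and rounded, and 128 genes with identical values were counted once per group (54 groups). The test was that of edgeR 4.0.16 under R 4.3.3 (filterByExpr, TMM, stage as the only term), and its script was tested on simulated data. The SE is the log2 fold change divided by the square root of F. Alternatives used DESeq2 1.42.0, limma 3.58.1 on log2(TPM + 0.5 or 0.1), total library size, 2 other filters, no fold threshold, a replicate block, transcripts, and each library left out in turn. Plots and tables were made with Python 3.11.15, pandas 2.3.3, scipy 1.17.1 and matplotlib 3.10.9.

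The members and gene lists were chosen with earlier results of these data known. Named genes are the members, genes of the lists, and for each member with a mean of at least 100 counts the 2 genes of nearest profile. Libraries of the same stage differed beyond sampling noise (chi-square per gene 9.75 to 34.8).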

Additional observations from a re-analysis of the deposited data

How the results depend on the processing

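The call of sr, and the direction of twi, zfh1 and htl with an adjusted p under 0.05, held under every alternative fitted on genes. Fitted as transcripts, FBtr0083549 and FBtr0083550 of htl (adjusted p 0.116 and 0.158) and FBtr0085702 of zfh1 (0.476) did not pass. The number of the 9 genes called was 1, and it was 2 with DESeq2 (Him added, at 1.00), 5 with no fold threshold, 2 with transcripts in place of genes (Mef2 and sr), and 1 to 2 with each library left out. Him had a log2 fold change of 0.84 to 1.02 with each library left out. Over all genes, 1666 were called, against 6031 with no fold threshold. For genes near 0 the sign turned: Mef2 was 0.042 with DESeq2, 0.032 with at least 10 counts in every library, 0.077 with limma on log2(TPM + 0.5), 0.079 with limma on log2(TPM + 0.1) and -0.033 to 0.023 with each library left out. lbl was -0.10 with total library size and -0.023 to 0.11 with each library left out. stumps was 0.030 with DESeq2, 0.021 with at least 10 counts in every library, -0.13 with total library size and -0.029 to 0.025 with each library left out. lbe could not be tested with at least 10 counts in every library, as wL3 replicate 3 held 7. Of 336 counts of called genes in the other lists, 310 were within 1.5 times of those given.

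The labels do not say whether the replicate numbers pair the libraries. Correlations of same-numbered deviations were -0.00, 0.15 and -0.26, beside -0.24 to 0.29 for pairs of unlike number. With 3 libraries per stage, these values can neither show nor exclude a pairing. With the replicate block, 1617 genes were called, 1 of the 9 among them, and no call of the 9 changed. Depth limits lbe, whose interval is wide at 7 to 33 counts.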
